A study of Mus with 15 samples.

Results

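The interaction of a CD25 gate and a FOXP3 gate was examined in mouse thymocytes that are on their way to, or beside, the regulatory T cell (Treg) fate. For each gene it was the log2 difference between mature Tregs and FOXP3lo progenitors minus the log2 difference between CD25+ progenitors and conventional CD4 single-positive (CD4SP) cells, from a fit of 4 group means. It rested on 12 of the 15 libraries of the series, 3 in each of 4 gates, and was tested in 15648 genes, of which 13196 carried a gene name. The libraries of the fifth gate, sorted as Bst2+, fill no corner of this square and were left out of the fit.

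All cells came from the thymus of 6-week-old female mice labelled C57Bl/6 x Foxp3-GFP, a strain with a fluorescent reporter of Foxp3, and every gate took live TCRb+CD4+ cells that were CD8-, Bst2- and CD73-. Conventional CD4SP cells were CD25-Foxp3-, CD25+ progenitors CD25+Foxp3-, FOXP3lo progenitors CD25-Foxp3lo and mature Tregs CD25+Foxp3+. The thymus was dissociated mechanically, depleted of CD8-bearing cells and sorted, and total RNA was sequenced in bulk. The labels call the 3 replicates (40, 42 and 43) biological and place them in 1 experiment, without saying whether each is a mouse or a pool, so p-values measure the spread between these samples.

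CD25 is the alpha chain of the interleukin 2 (IL-2) receptor and raises its affinity for the cytokine, which signals through STAT5. FOXP3 is the transcription factor that defines Tregs. In the thymus, CD4SP cells with strong T cell receptor (TCR) signals can become Tregs through progenitors that carry CD25 before FOXP3 or a low level of FOXP3 before CD25, and both kinds complete the programme with help from IL-2 and related cytokines. The interaction asks whether the change that goes with CD25 is the same in cells without and with FOXP3. On the log scale it also compares the sum of the 2 ends of this path, conventional cells and mature Tregs, with the sum of the 2 progenitors. A negative value, called lower below, means that mature Tregs stood below the level that multiplying the separate gate effects would give. Equally, the log2 levels of the 2 progenitors then summed to more than those of the 2 ends. A positive value, called higher, means the reverse of both.

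The libraries held between 12597114 and 23758157 counted read pairs and between 18355 and 23382 genes with a count. Levels are given in CPM, counts scaled to the TMM-adjusted size of the library, in the order of replicates 40, 42 and 43. Where a gene has 4 values, they are the means of conventional cells, of CD25+ and FOXP3lo progenitors and of mature Tregs, in this order. Il2ra, which encodes CD25 (chr2:11642807-11693193, GRCm38), stood at 10.4, 7.49 and 9.48 CPM in conventional cells, 296, 283 and 292 in CD25+ progenitors, 105, 101 and 118 in FOXP3lo progenitors and 1162, 1183 and 1125 in mature Tregs. Foxp3 (chrX:7573644-7595245) was at 0.523 to 1.57 CPM in conventional cells and 1.83 to 4.21 in CD25+ progenitors, against 298, 273 and 302 in FOXP3lo progenitors and 535, 616 and 651 in mature Tregs. Neither gate therefore stood for a single RNA level. The CD25- cells of the FOXP3lo gate had more Il2ra RNA than the CD25- conventional cells, and Foxp3 RNA was higher in mature Tregs than in FOXP3lo progenitors by 1.05 ± 0.14 (SE) on the log2 scale. The interaction of Il2ra was −1.54 ± 0.11 (SE, n = 3 libraries per gate, adjusted p = 8.27e-14), and that of Foxp3, −0.77 ± 0.41, was not called (adjusted p = 0.32). It was called without CD25+ progenitor replicate 42 (−1.07, adjusted p = 0.00327) and with no filter on low counts. Cd4 (533 to 863 CPM as group means), Trbc1, Trbc2, Bst2 and Nt5e, which encodes CD73, had no called interaction, with adjusted p from 0.206 to 0.949. Nor had Cd8a (1.49, adjusted p = 0.203), although some alternative fits called it. In bulk libraries, fewer cells of a type and less RNA per cell cannot be told apart.

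The interaction was called for 1698 of the 15648 genes tested (10.9%; edgeR's quasi-likelihood test, Benjamini-Hochberg adjusted p under 0.05), of which 855 were called higher (5.46%) and 843 lower (5.39%). Its size exceeded 2-fold in 233 of the genes called higher and 370 of those called lower. The median over all genes tested was 0.01 on the log2 scale, and the central 90% ran from −1.64 to 1.48. CD25+ progenitors stood at the extreme of most of these genes. They had the highest mean in 533 of the 843 genes called lower (63.2%) and the lowest in 682 of the 855 called higher (79.8%). Over all genes tested they were the highest, or the lowest, of the 4 gates in 29.6%. Since the interaction sets the progenitors against the ends, a call by itself favours a progenitor at that extreme. The share of all genes is therefore no baseline for these counts. FOXP3lo progenitors had the highest mean in 181 of the genes called lower (21.47%) and the lowest in 120 of those called higher (14.04%). Both shares lay below those of FOXP3lo progenitors over all genes tested, 23.78% and 24.95%, although a call favours a progenitor there. Conventional cells had the lowest mean in 514 of the genes called lower, and mature Tregs the highest in 355 of those called higher. Over all genes tested, these shares were 22.1% and 22.6%.

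The effect of the CD25 gate differed in kind as well as in size. Without FOXP3, the CD25 gate called 4534 genes (29%), and with FOXP3 it called 2919 (18.7%). These comparisons share no library, and their log2 effects had a Pearson correlation of 0.302 and a Spearman correlation of 0.379 across genes, which are not independent replicates. Among the 843 genes called lower, 444 changed with the CD25 gate only in the test without FOXP3, 171 rose in both tests and 70 rose without FOXP3 and fell with it. Among the 855 genes called higher, 396 changed only in the test without FOXP3, 164 fell in both and 96 fell without FOXP3 and rose with it. Read along the other gate, FOXP3 called 3925 genes without CD25 (25.1%) and 5114 with it (32.7%). There, 120 of the genes called lower rose with FOXP3 in cells without CD25 and fell in cells with it, and 64 of the genes called higher did the reverse.

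**Figure D1:**
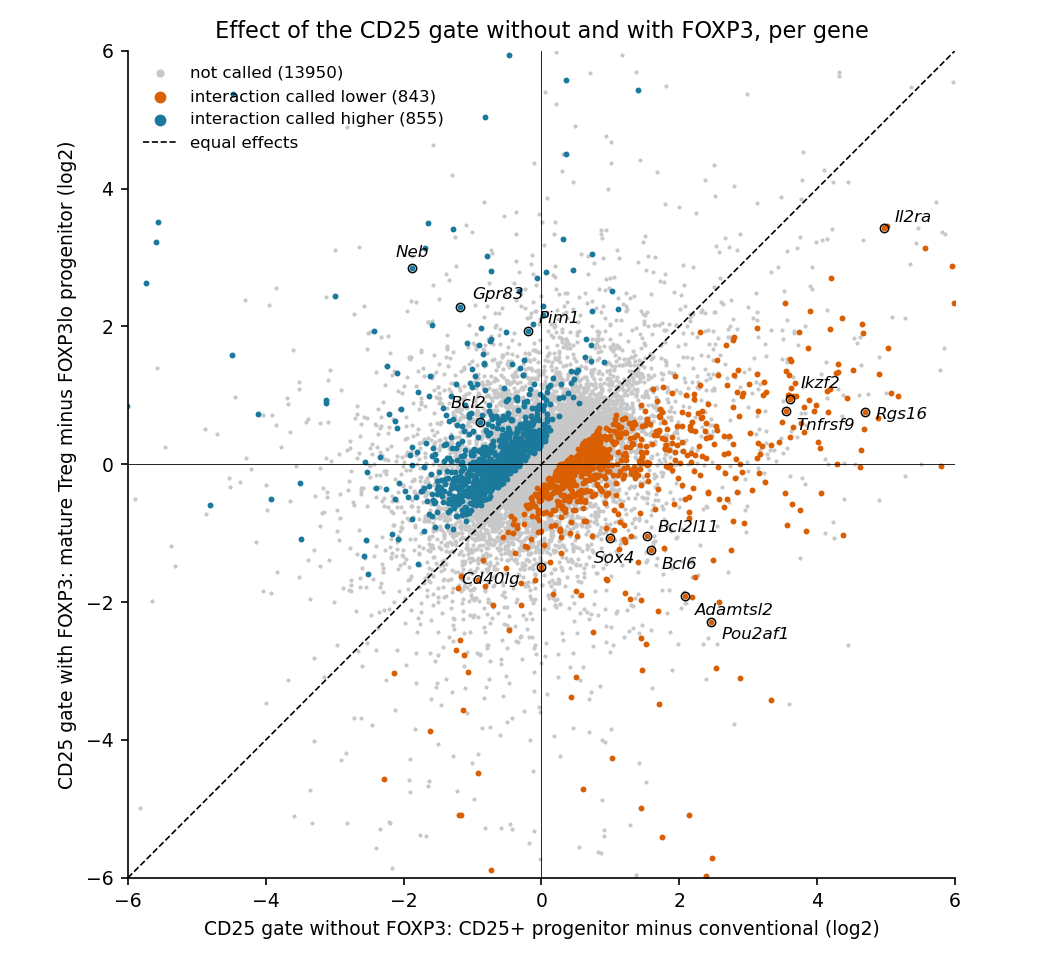
Log2 effect of the CD25 gate without FOXP3 (CD25+ progenitors minus conventional cells, x axis) and with FOXP3 (mature Tregs minus FOXP3lo progenitors, y axis), 1 point per gene; the dashed line marks equal effects, orange points are the 843 genes called lower and blue points the 855 called higher, and 84 genes lie outside the axes. Circled genes below the line, such as Ikzf2 and Bcl2l11, had a larger rise or an opposite effect without FOXP3. Cd40lg, also circled there, was level without FOXP3 and fell with the CD25 gate in cells with FOXP3. Circled genes above the line, such as Neb and Gpr83, rose with the CD25 gate in cells with FOXP3.

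Over all genes tested, the interaction took 17% of the sum of squares of log2 CPM between the 4 gates, against 46.5% for the FOXP3 gate and 36.5% for the CD25 gate. Its mean square was 1.88 times that between replicates of a gate. A principal component analysis put the FOXP3 gate on the first component (27.4% of the variance) and the CD25 gate on the second (22.2%). On the third (8.80%), the 6 progenitor libraries scored from −34.7 to −12.2 and the 6 libraries of the ends from 5.54 to 44.3. On untransformed CPM, the same contrast had the opposite sign in 32 of the 843 genes called lower (3.80%) and 9 of the 855 called higher (1.05%). Il2ra was such a gene, with an additive contrast of 768 ± 18.1 (SE) CPM beside its negative log2 interaction.

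A stricter reading of the same question asks for genes in which each progenitor differed from each end. All 4 contrasts of a progenitor with an end were called with progenitors above in 23 genes (0.147% of those tested) and with progenitors below in 17 (0.109%). All 40 also had a called interaction. The rule all but fixes this, since it needs called CD25 effects of opposite sign without and with FOXP3. The interaction is the difference of these effects, so its call is no separate test of the sets. The 6 progenitor libraries were completely apart from the 6 libraries of the ends in 20 of the 23 and in 15 of the 17. These are the libraries by which the genes were chosen, so this describes the sets and does not test them. The same separation, with no test, held for 70 genes above (0.447%) and 43 below (0.275%) among all genes tested. At the threshold, the largest of the 4 adjusted p was 0.0463 for Tubb3, just inside the set above, and 0.0583 for ENSMUSG00000078970, a gene without a symbol, just outside it. For the set below it was 0.0416 for ENSMUSG00000097250, also without a symbol, inside, and 0.0573 for Flot2, outside.

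One gene of the set above, Bcl2l11, encodes BIM, a protein that triggers mitochondrial apoptosis and removes thymocytes with strong TCR signals (chr2:128126038-128162547). It stood at 92.0, 83.3 and 98.9 CPM in conventional cells, 227, 292 and 273 in CD25+ progenitors, 96.2, 128 and 110 in FOXP3lo progenitors and 54.1, 61.2 and 46.8 in mature Tregs. CD25+ progenitors were far above the other gates, mature Tregs below all, and the FOXP3lo libraries overlapped those of conventional cells. The CD25 gate raised Bcl2l11 by 1.53 ± 0.10 (log2, SE) without FOXP3 and went with a fall of 1.05 ± 0.11 with it, an interaction of −2.57 ± 0.15 (adjusted p = 4.49e-14). The contrast of FOXP3lo progenitors with conventional cells was small, 0.28 ± 0.10 with an adjusted p of 0.040.

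Bcl6 encodes a transcriptional repressor best known from follicular helper T cells (chr16:23965052-23988852). Its level was 25.5, 33.4 and 25.9 CPM in conventional cells, 73.1, 89.5 and 90.8 in CD25+ progenitors, 83.7, 99.7 and 86.5 in FOXP3lo progenitors and 36.0, 33.6 and 44.2 in mature Tregs. Both progenitors stood together at more than the highest value of either end, with no overlap. The interaction was −2.83 ± 0.16 (adjusted p = 9.73e-17).

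Sox4, a transcription factor of immature lymphocytes (chr13:28948919-28953713), was at 193, 212 and 243 CPM in conventional cells, 393, 450 and 451 in CD25+ progenitors, 269, 270 and 253 in FOXP3lo progenitors and 118, 121 and 137 in mature Tregs. Here the order ran from CD25+ progenitors through FOXP3lo progenitors and conventional cells to mature Tregs, without overlap between neighbours. Its interaction was −2.07 ± 0.11 (adjusted p = 3.2e-18).

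Plcg1, also in the set above, encodes the phospholipase that turns TCR engagement into calcium flux. It was at 527, 491 and 489 CPM in conventional cells, 583, 584 and 623 in CD25+ progenitors, 591, 584 and 618 in FOXP3lo progenitors and 384, 418 and 428 in mature Tregs, an interaction of −0.79 ± 0.09. The progenitors were level with each other, and mature Tregs were lowest. Ptpn22, a phosphatase that dampens TCR signalling, peaked in FOXP3lo progenitors at 237, 212 and 238 CPM, against group means of 130 in conventional cells, 156 in CD25+ progenitors and 120 in mature Tregs (interaction −1.2 ± 0.11). Nfatc1, a transcription factor that calcium signals activate, had group means of 143, 176, 177 and 139 CPM (−0.64 ± 0.11). Stap1, an adaptor of kinase signalling, had means of 52.7, 80.1, 71.7 and 54.1 CPM in the same order (−1.01 ± 0.14).

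Adamtsl2 and Fam163b, neighbours on chromosome 2, were among those with the largest gaps. Adamtsl2, a secreted matrix protein (chr2:27079379-27108981, + strand), stood at 7.92, 6.81 and 5.76 CPM in conventional cells, 22.5, 29.8 and 34.6 in CD25+ progenitors, 16.5, 13.9 and 17.1 in FOXP3lo progenitors and 3.10, 5.42 and 3.97 in mature Tregs. Its interaction was −3.99 ± 0.31 (adjusted p = 4.43e-13), and that of Fam163b, at group means of 1.99, 5.34, 8.12 and 2.08 CPM, was −3.41 ± 0.56. Their 3′ ends lie 1398 bases apart on opposite strands (Fam163b at chr2:27110380-27142491), with no other tested gene between them. Counting used the strand, so reads of one were not assigned to the other by overlap alone. Rnf144a, a ubiquitin ligase, was highest in FOXP3lo progenitors at 78.7, 68.3 and 72.9 CPM, with means of 17.4 in conventional cells, 26.1 in CD25+ progenitors and 19.8 in mature Tregs (−2.47 ± 0.20). Nsmaf, an adaptor of the TNF receptor, had close means of 86.0 and 87.5 CPM in CD25+ and FOXP3lo progenitors, against 57.7 and 60.4 in conventional cells and mature Tregs (−1.10 ± 0.15). Zfpm1, a cofactor of GATA factors, had means of 54.0, 94.1, 68.2 and 55.4 CPM from conventional cells through CD25+ and FOXP3lo progenitors to mature Tregs (−1.10 ± 0.14). The remaining members were B4galnt1, Cdon, Chd9, Epb41, Gm40841, Gucy1b1, Mbtd1, Rnf19a, Slc37a1, Tubb3 and Zfp341, with interactions from −3.82 (Tubb3) to −0.56 (Mbtd1).

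**Figure D2:**
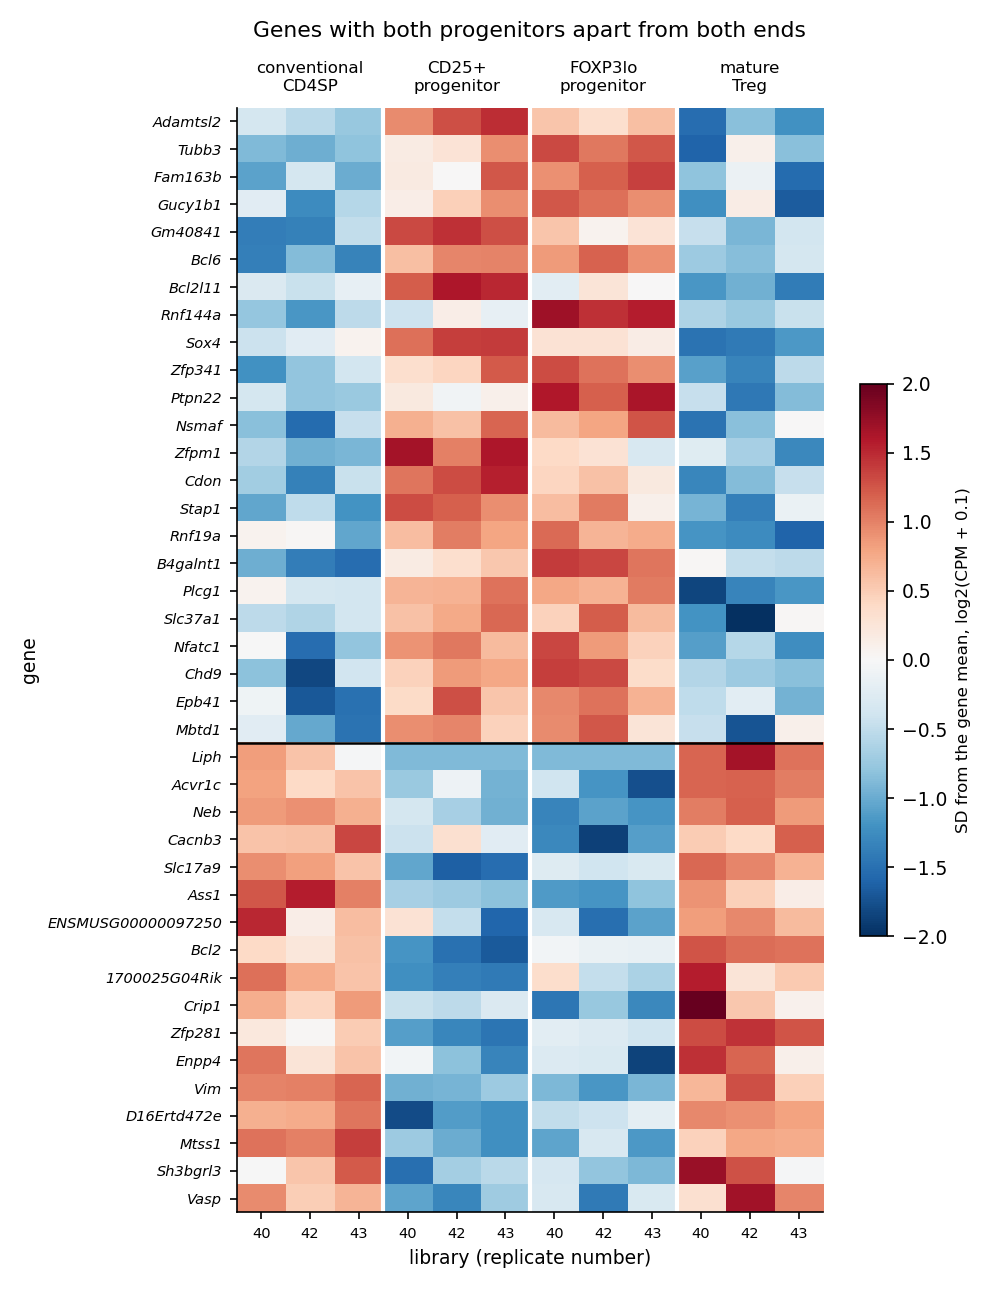
Level of the 23 genes with both progenitors above both ends (top block) and the 17 below (bottom block) in each of the 12 libraries; colour gives the distance from the mean of the gene in SD of log2(CPM + 0.1), cut at 2 SD in either direction. The 6 middle columns, the progenitors, are mostly red in the top block and mostly blue in the bottom block.

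The genes in which both progenitors lay below both ends included Bcl2, which encodes an inhibitor of mitochondrial apoptosis and the main partner of BIM (chr1:106538178-106714274). It stood at 306, 288 and 326 CPM in conventional cells, 180, 162 and 152 in CD25+ progenitors, 263, 256 and 255 in FOXP3lo progenitors and 407, 389 and 386 in mature Tregs. No libraries of neighbouring gates overlapped, and the interaction was 1.51 ± 0.10 (adjusted p = 1.68e-15). Bcl2 and Bcl2l11 thus had opposite interactions, with the progenitors low in the former and high in the latter.

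Vim, the intermediate filament vimentin (chr2:13573927-13582826), was at 638, 639 and 663 CPM in conventional cells, 408, 411 and 430 in CD25+ progenitors, 413, 390 and 412 in FOXP3lo progenitors and 592, 682 and 567 in mature Tregs. The libraries of the 2 progenitors overlapped, as did those of the 2 ends, a pattern that neither gate alone describes. Its interaction was 1.23 ± 0.09 (adjusted p = 1.33e-13). Neb, which encodes the giant muscle protein nebulin (chr2:52136647-52378474), had lower levels in both progenitors than in either end by a wide margin. Its level was 59.3, 62.6 and 52.1 CPM in conventional cells, 20.4, 15.3 and 11.8 in CD25+ progenitors, 8.56, 10.7 and 9.68 in FOXP3lo progenitors and 68.8, 80.7 and 59.5 in mature Tregs. The ends overlapped, and the progenitors were lower by 1.88 to 2.85 on the log2 scale (interaction 4.73 ± 0.21, adjusted p = 2.5e-20). 

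Zfp281, a zinc-finger factor, had means of 203, 130, 173 and 277 CPM (1.31 ± 0.10). Mtss1, which bends membranes and binds actin, had means of 123, 83.2, 85.6 and 112 CPM (0.96 ± 0.11), and Vasp, which extends actin filaments, 244, 207, 215 and 251 CPM (0.46 ± 0.10). Ass1, the enzyme argininosuccinate synthase, had means of 49.8, 23.0, 20.5 and 37.2 CPM (1.97 ± 0.19), and Slc17a9, a vesicular nucleotide transporter, 18.9, 5.49, 10.1 and 20.9 CPM (2.83 ± 0.28). Acvr1c, a receptor of the TGF-β family, was low throughout, at means of 3.77, 1.17, 0.722 and 6.36 CPM (4.82 ± 0.68). Liph was in the set with 0 counts in all 6 progenitor libraries, against 25 counts over the conventional libraries and 53 over those of mature Tregs. With a floor of 3 counts over each progenitor group and the ends held at their means, its interaction was at least 7.44 on the log2 scale. Its mean was at most 1.26 CPM in any gate. The remaining members were 1700025G04Rik, Cacnb3, Crip1, D16Ertd472e, Enpp4, Sh3bgrl3 and the unnamed gene ENSMUSG00000097250, with interactions from 0.59 (Sh3bgrl3) to 2.85 (Cacnb3).

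**Figure D3:**
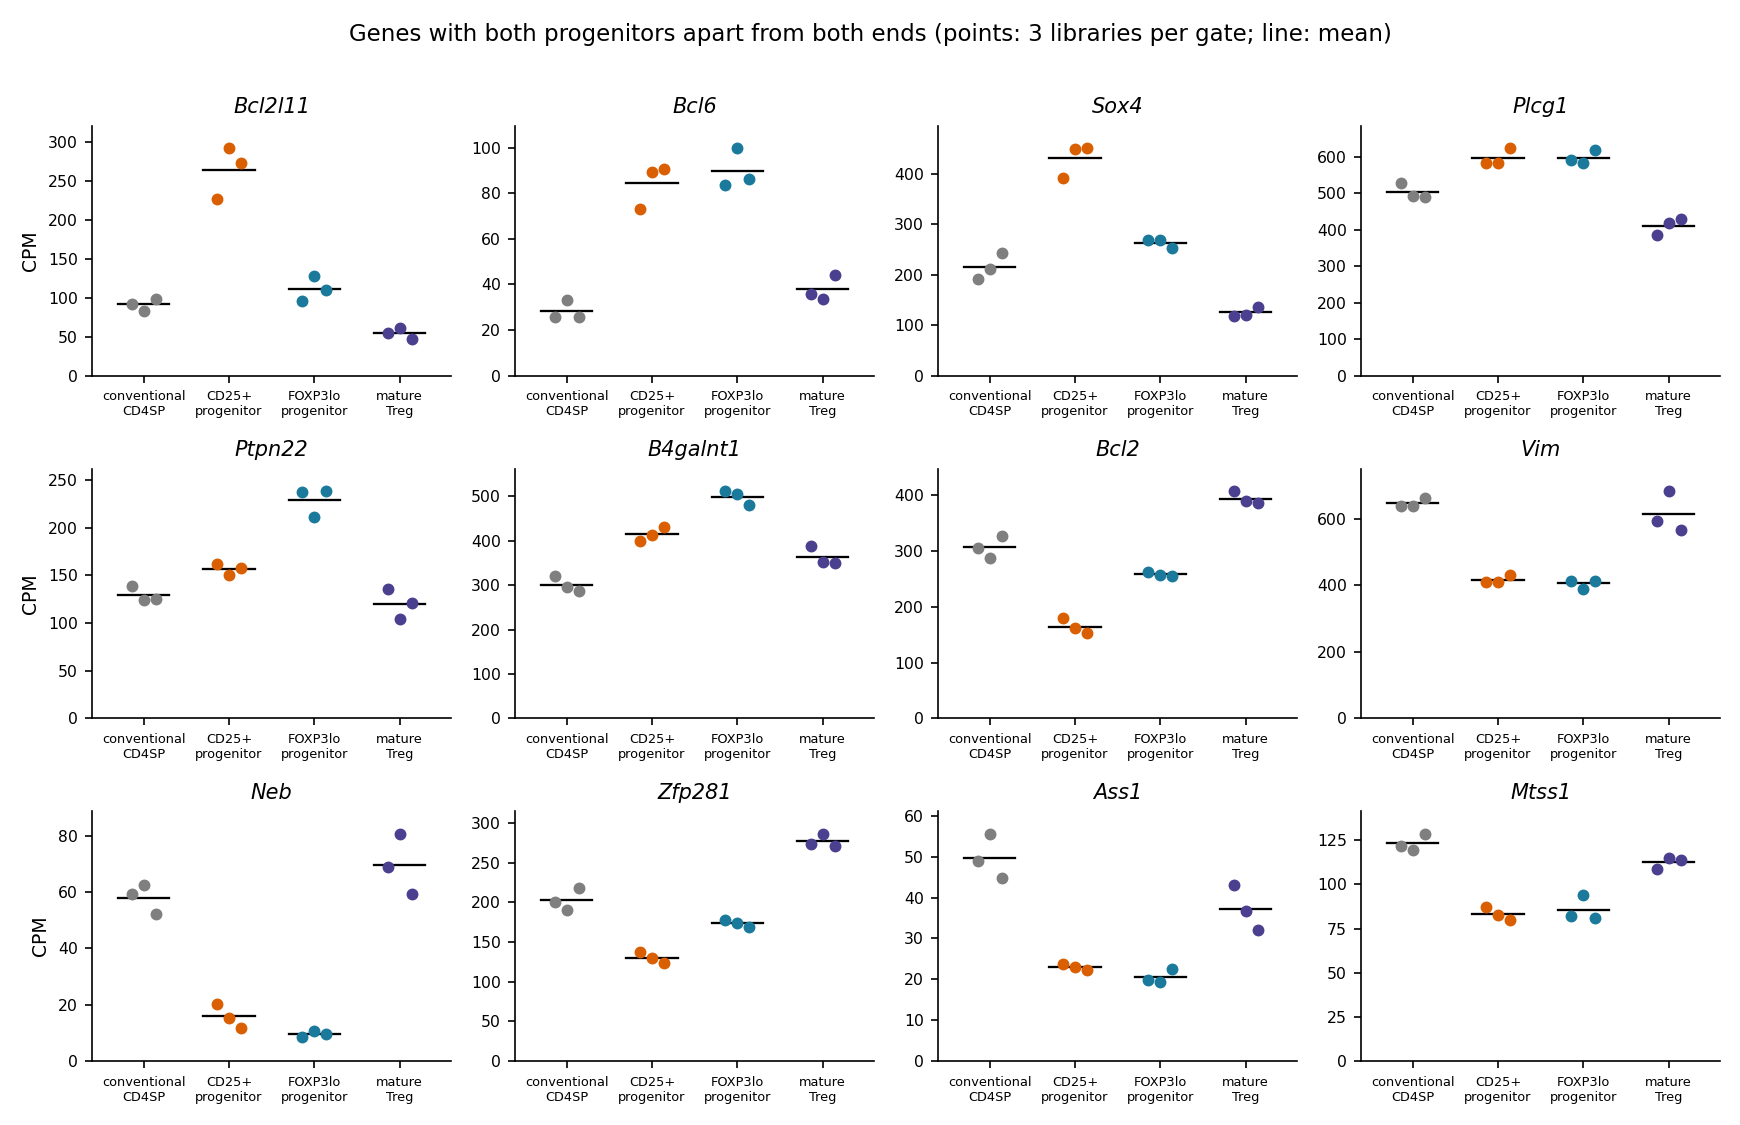
CPM of 12 genes of these sets by gate, on a linear axis from 0; each point is 1 of 3 libraries and the line is their mean. From Bcl2l11 to B4galnt1 the middle columns, the progenitors, stand above the outer ones, and from Bcl2 to Mtss1 they stand below.

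The largest called interactions outside these sets came from genes that 1 gate set apart. Most of the lowest values belonged to genes of CD25+ progenitors. Xcl1, a chemokine, stood at 20.2, 21 and 24.4 CPM there, with means of 0.164 in conventional cells, 0.779 in FOXP3lo progenitors and 2.13 in mature Tregs (interaction −5.44 ± 0.75, adjusted p = 2.27e-06). Wnt10a, a secreted WNT ligand, was at 11.7, 14.2 and 17.1 CPM in CD25+ progenitors and at means of 0.125, 1.43 and 4.40 in conventional cells, FOXP3lo progenitors and mature Tregs (−5.53 ± 0.78). All 5 counts of Wnt10a in conventional cells were in replicate 42, without which the fitted interaction was −9.35. Pou2af1, a coactivator of octamer-binding factors known from B cells, was at 15.1, 16.7 and 14.8 CPM in CD25+ progenitors, against 1.42 to 4.65 in conventional cells, 3.53 to 4.55 in FOXP3lo progenitors and 0.669 to 0.845 in mature Tregs (−4.75 ± 0.51). Gfra1, a receptor subunit for glial growth factors, had 279 counts over the CD25+ progenitor libraries and 0 over the conventional ones. With a floor of 3 counts for the latter and the other gates held at their means, its interaction was −6.16 or lower. That limit leaves out the error of the other gates. Epb41l4b (−5.79 ± 1.06) and Tns3 (−4.80 ± 1.02), both linked to the cell cortex and adhesion, were also highest in CD25+ progenitors, at means of 11 and 6.56 CPM.

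A different shape underlay Wnt3 and Cxcr5, in which conventional cells alone were low. Wnt3, another WNT ligand, had 1 count over the 3 conventional libraries, and means of 5.07, 4.72 and 16.7 CPM in CD25+ progenitors, FOXP3lo progenitors and mature Tregs. Cxcr5, the chemokine receptor of B cell follicles, was at a mean of 0.269 CPM in conventional cells and at 6.49, 5.19 and 5.06 in the other gates, which overlapped (−4.67 ± 0.67). In Cxcr5 either gate alone went with the higher level, and mature Tregs stood no higher than the progenitors. In Wnt3 mature Tregs were above both progenitors. In Pdlim4, mature Tregs alone had 0 counts, while conventional cells had 6.34 to 7.71 CPM. With a floor of 3 counts over the Treg libraries and the other gates held at their means, its interaction was −2.33 or lower.

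Among the highest values, 3 genes were raised in mature Tregs alone. Kcnj15, a potassium channel, stood at 6.11, 5.98 and 5.14 CPM there and at a mean of at most 0.197 elsewhere (5.23 ± 1.22). Socs2, an inhibitor of cytokine signalling that STAT5 induces, was at 14.9, 20.8 and 21.4 CPM in mature Tregs and at a mean of at most 0.484 elsewhere (4.03 ± 0.95, adjusted p = 0.0027, or 3.27 and 0.112 without conventional replicate 43). Rragd, a GTPase of amino acid sensing, was at 22.2, 19.7 and 23.3 CPM in mature Tregs and at means of 2.58 to 4.46 in the other gates (3.81 ± 0.42). In these genes CD25 and FOXP3 were high together or the gene was low. Rap1gap2 (3.66 ± 0.72) and Gpnmb (3.42 ± 0.99) had the opposite base, with conventional cells at means of 6.86 and 5.05 CPM and every other gate at 1.44 or less. Gpnmb lost its call without mature Treg replicate 40 (1.99, adjusted p = 0.272) or conventional replicate 43 (3.28, 0.0568). Osgin1, an oxidative stress gene, was low in CD25+ progenitors, with 5 counts over the 3 libraries, and at means of 0.858 to 5.04 CPM elsewhere (4.02 ± 0.90).

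The 70 and 96 genes in which the CD25 gate went opposite ways without and with FOXP3 include, by their definition, all 40 genes described so far as having both progenitors above or below both ends. Others among them were further from that pattern. Gpr83, a G protein-coupled receptor of the Treg signature (chr9:14860210-14870789), fell from 28.8, 30.7 and 28.1 CPM in conventional cells to 12.4, 14.9 and 11.1 in CD25+ progenitors, and rose from 38.3, 43.4 and 42.2 in FOXP3lo progenitors to 212, 202 and 190 in mature Tregs. All 4 gates were apart. The effects were −1.19 ± 0.11 and 2.28 ± 0.10, an interaction of 3.47 ± 0.15 (adjusted p = 2.78e-21). Tlr1, an innate receptor of bacterial lipopeptides, went from 6.62 ± 0.947 CPM (SD, n = 3) to 2.78 ± 0.977 without FOXP3 and from 14 ± 2.18 to 31.3 ± 3.58 with it (2.41 ± 0.32). Il12rb2, a chain of the interleukin 12 receptor, went from 8.72 to 2.9 and from 0.948 to 3.85 CPM as group means (3.61 ± 0.58). Itga9, an integrin subunit, did the reverse, from 1.84 ± 0.355 to 8.52 ± 3.36 CPM without FOXP3 and from 29.8 ± 1.45 to 9.56 ± 1.71 with it (−3.86 ± 0.35, adjusted p = 2.66e-11).

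Gene lists were then read for how many members had a called interaction, beside the shares of all genes tested, 5.46% called higher and 5.39% called lower. The lists can share members. Among called members, the gate with the highest or lowest mean is tied to the call, as it is over all called genes. Genes named from them beyond the 3 called members with the smallest adjusted p were chosen after their values were seen.

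Genes induced by TCR signalling had the most calls on the lower side. Of 37 tested, 21 were called lower (56.8%) and 4 higher (10.81%), with a median interaction of −0.61 on the log2 scale against 0.01 over all genes. The median effect of the CD25 gate was 0.90 without FOXP3 and 0.00 with it, and that of the FOXP3 gate 0.68 without CD25 and −0.16 with it. The step from conventional cells raised 27 of the 37 in CD25+ and 25 in FOXP3lo progenitors, beside 14.7% and 12.8% of all genes tested. The step from CD25+ progenitors on to mature Tregs raised 10 and lowered 16, beside 15.9% and 16.8% of all genes. That from FOXP3lo progenitors raised 14 and lowered 10, beside 9.37% and 9.29%. All 21 peaked in a progenitor, which a call on the lower side favours by itself, 14 in CD25+ and 7 in FOXP3lo progenitors. The summed level of the list was 3934 to 4197 CPM in conventional cells, 6514 to 7339 in CD25+ progenitors, 5560 to 5736 in FOXP3lo progenitors and 6451 to 6820 in mature Tregs.

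Ikzf2, the gene of the transcription factor Helios (chr1:69531214-69687245), gave the smallest adjusted p of this list. It stood at 93.5, 94.9 and 98.8 CPM in conventional cells, 1108, 1197 and 1186 in CD25+ progenitors, 566, 570 and 660 in FOXP3lo progenitors and 1137, 1061 and 1270 in mature Tregs. CD25+ progenitors and mature Tregs overlapped. The FOXP3 gate went with a rise of 2.64 ± 0.07 in cells without CD25 and a difference of −0.01 ± 0.07 in cells with it. The interaction was −2.65 ± 0.10 (adjusted p = 1.89e-23).

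The nuclear receptors of the NR4A family, immediate targets of TCR signals, all had called interactions. Nr4a3 (chr4:48045153-48086447) was at 111, 99.3 and 115 CPM in conventional cells, 388, 406 and 418 in CD25+ progenitors, 249, 233 and 233 in FOXP3lo progenitors and 322, 321 and 302 in mature Tregs (−1.49 ± 0.10, adjusted p = 1.97e-15). Nr4a1 had group means of 156, 394, 213 and 208 CPM in the same order (−1.37 ± 0.13), and Nr4a2 of 6.04, 20.8, 9.68 and 11.4 CPM (−1.55 ± 0.33). CD25+ progenitors were highest in each. The inhibitory receptor gene Pdcd1 was at 9.54 to 11.5 CPM in conventional cells and at means of 38.2, 28.4 and 27.7 in CD25+ progenitors, FOXP3lo progenitors and mature Tregs (−1.87 ± 0.21), and Spry1, a brake on receptor signalling, 1.94, 30.8, 8.48 and 15.4 CPM (−3.12 ± 0.31). A second group peaked in FOXP3lo progenitors instead, among them the surface receptors Cd5 (415, 425, 570 and 413 CPM, −0.50 ± 0.10) and Cd6 (372, 434, 558 and 427 CPM, −0.61 ± 0.09) and the ubiquitin ligase Cblb (126, 220, 310 and 279 CPM, −0.95 ± 0.10), all of which restrain TCR signals. The 4 called higher were Tox, Cd69, Myc and Irf4, with interactions of 0.40 to 0.58, and 2 were called higher without replicate 43 of conventional cells or of mature Tregs.

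In the NF-κB and TNF receptor list, 11 of 31 were called lower (35.5%) and 7 higher (22.6%), with a median interaction of −0.22. The transcription factor subunits Nfkb1 (−0.57 ± 0.09), Nfkb2 (−0.72 ± 0.12) and Relb (−0.45 ± 0.15) and the feedback inhibitor Tnfaip3 (−0.89 ± 0.11) were called lower. Among the receptors, Tnfrsf9, which encodes 4-1BB (chr4:150914562-150946102), was at 27.7, 40.7 and 41.9 CPM in conventional cells, 377, 421 and 475 in CD25+ progenitors, 136, 133 and 141 in FOXP3lo progenitors and 229, 214 and 255 in mature Tregs (−2.77 ± 0.17, adjusted p = 1.64e-09). The 4 gates did not overlap. Tnfrsf1b, which encodes the TNF receptor TNFR2, had means of 55.1, 229, 171 and 196 CPM (−1.85 ± 0.12), with conventional cells alone low. Cd40lg, the ligand by which helper T cells engage CD40, was level without FOXP3 (105 and 104 CPM) and fell with CD25 in cells with FOXP3 (40.9 to 14.5 CPM, −1.5 ± 0.10). The cytokine genes Ltb (0.69 ± 0.11) and Tnf (1.2 ± 0.30) and the adhesion molecule gene Icam1 (1.28 ± 0.21) were called higher.

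The Treg signature split. Of 33 genes tested, 13 were called lower (39.4%) and 8 higher (24.2%), although their simple effects were mostly rises, with medians of 1.17 to 1.89 in the 4 comparisons. Among the 13 called lower, 9 had their highest mean in mature Tregs, so a negative interaction here meant gains that were less than multiplicative rather than a peak in progenitors. Lrrc32, which encodes GARP, the anchor of latent TGF-β (chr7:98489283-98502181), was at 1.5, 1.80 and 1.51 CPM in conventional cells, 51.2, 45.4 and 57.4 in CD25+ progenitors, 23.6, 23.7 and 31.1 in FOXP3lo progenitors and 287, 281 and 295 in mature Tregs (−1.55 ± 0.19). Mature Tregs stood far above the rest, and the interaction was still negative, since each gate alone had raised the gene by 5.01 and 4.04 on the log2 scale and the last steps raised it by 3.46 and 2.49. Rgs16, a regulator of G protein signalling, was different, with means of 3.35, 87.9, 26.3 and 44.2 CPM and its peak in CD25+ progenitors (−3.95 ± 0.20, adjusted p = 1.11e-18). Il2ra itself is in this list and in the next.

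The 8 called higher included genes whose level in mature Tregs neither progenitor approached. Nrp1, which encodes the surface receptor neuropilin 1, had means of 9.84, 10.1, 26.2 and 117 CPM (2.14 ± 0.20), Capg, an actin-capping protein, 15.9, 14.5, 14.9 and 61.3 CPM (2.15 ± 0.23), and Itgae, the integrin CD103, 1.29, 2.68, 2.93 and 16.8 CPM (1.5 ± 0.48). Izumo1r, which encodes folate receptor 4, had means of 54.9, 26.6, 70.3 and 158 CPM (2.21 ± 0.14). Like Gpr83 it was lowest in CD25+ progenitors. Prdm1, which encodes the repressor BLIMP-1, was nearly absent there, with 12 counts over the 3 libraries, and at means of 4.01, 2.36 and 3.95 CPM in conventional cells, FOXP3lo progenitors and mature Tregs (4.85 ± 0.83).

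The list of IL-2 receptor, STAT5 and cytokine feedback genes had most of its calls on the other side, with 12 of 27 higher (44.4%) and 3 lower (11.1%) and a median of 0.39. The median effect of the CD25 gate was 0.10 without FOXP3 and 0.75 with it. The 3 called lower were the receptor chains Il2ra and Il2rb (24.2, 168, 183 and 657 CPM, −0.95 ± 0.16) and Cish (15.7, 77.6, 53.8 and 204 CPM, −0.38 ± 0.12), a feedback inhibitor that STAT5 induces. All 3 rose with each gate and were highest in mature Tregs. Pim1, a survival kinase downstream of STAT5 (chr17:29490753-29496112), was at 28.3, 22.8 and 34.6 CPM in conventional cells, 27.6, 24.9 and 23.0 in CD25+ progenitors, 33.5, 37.7 and 32.7 in FOXP3lo progenitors and 122, 149 and 126 in mature Tregs. Conventional cells overlapped both progenitors, and mature Tregs alone were high (2.12 ± 0.17, adjusted p = 1.12e-12). Socs1 (26.9, 22.4, 22.5 and 54.9 CPM, 1.55 ± 0.20) had the same shape, as did Socs2 above. Other members were lowest in CD25+ progenitors, as was Il4ra, the interleukin 4 receptor chain, with means of 199, 122, 219 and 262 CPM (0.97 ± 0.10), and Mcl1, an inhibitor of apoptosis, with 471, 409, 658 and 806 CPM (0.50 ± 0.09). Il7r, the interleukin 7 receptor chain, had means of 345 CPM in conventional cells and 58.4, 45.8 and 46.8 in the other gates (2.59 ± 0.34, adjusted p = 0.00106). It fell with either gate alone, and the 3 lower gates overlapped.

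**Figure D4:**
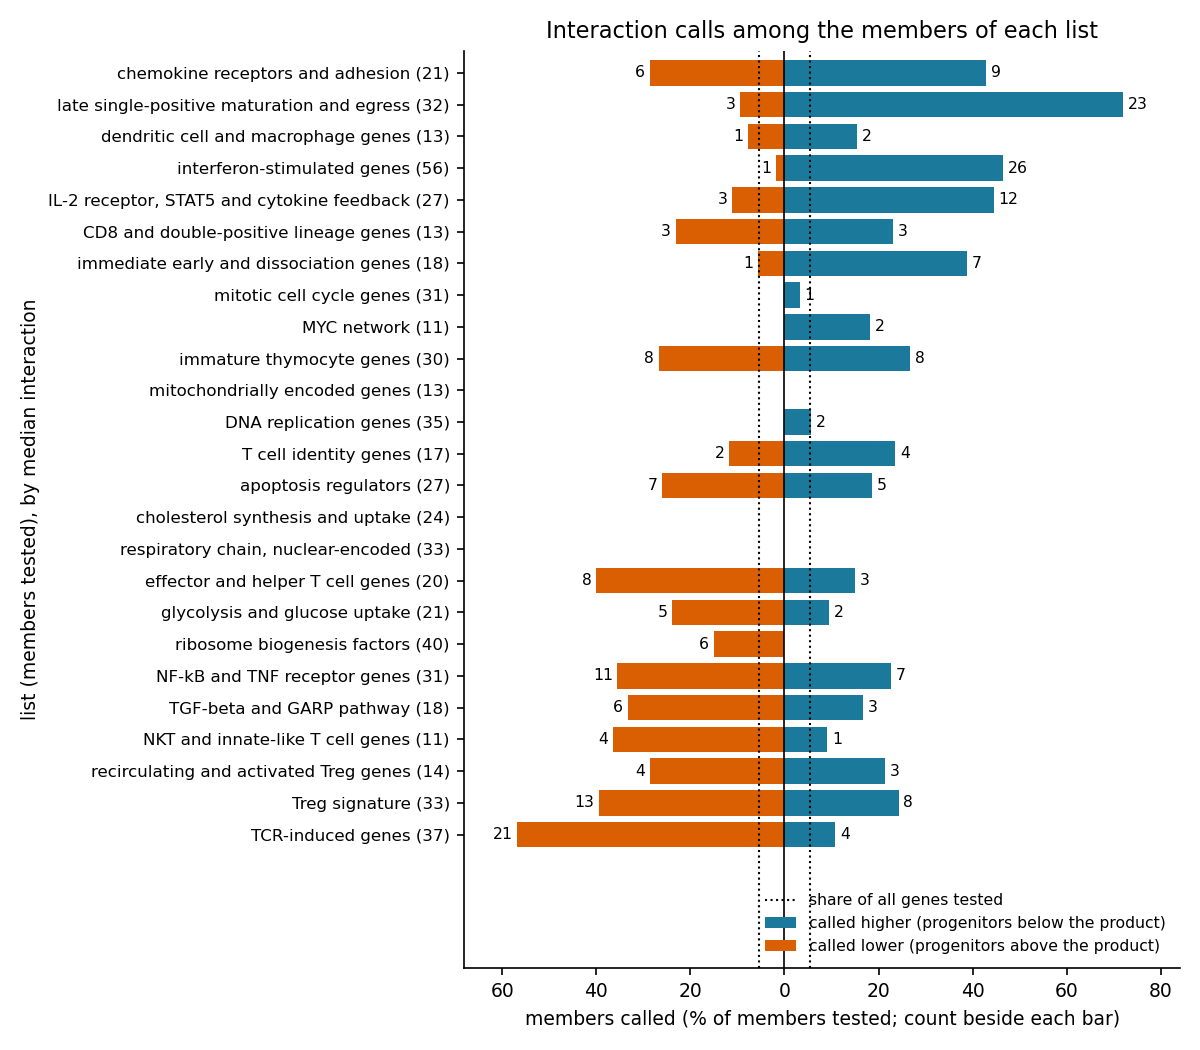
Share of the members tested of each list whose interaction was called higher (blue, right) or lower (orange, left), for the 25 lists with at least 10 members tested, ordered by median interaction, with the number of members beside each bar; dotted lines mark the shares of all genes tested, 5.46% and 5.39%. The TCR-induced list reaches 56.8% on the left, and the late single-positive list 71.9% and the interferon list 46.4% on the right.

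Genes of late single-positive maturation and thymic egress had the highest share of calls among lists with at least 10 members tested. Of 32 tested, 23 were called higher (71.9%) and 3 lower (9.38%), with a median of 0.63. In 22 of the 23, CD25+ progenitors had the lowest mean. The CD25 gate lowered 27 of the 32 without FOXP3 (median −0.74) and 13 with it (median −0.08), beside 14.3% and 9.29% of all genes tested. The summed level was 7893 to 8274 CPM in conventional cells and 4998 to 5091 in CD25+ progenitors, against 12003 to 12335 in FOXP3lo progenitors and 11157 to 11382 in mature Tregs.

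S1pr1, the receptor by which mature thymocytes leave the thymus (chr3:115710433-115715072), was at 226, 188 and 188 CPM in conventional cells, 86.9, 69.1 and 72.5 in CD25+ progenitors, 618, 615 and 623 in FOXP3lo progenitors and 517, 506 and 499 in mature Tregs. All gates were apart, and with CD25 the gene changed by −1.4 ± 0.08 without FOXP3 and −0.29 ± 0.07 with it (log2; interaction 1.11 ± 0.11, adjusted p = 8.91e-11). Klf2, a transcription factor that drives S1pr1, had means of 150, 108, 220 and 289 CPM (0.87 ± 0.10).

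Gimap3, a GTPase of lymphocyte survival, was at means of 336, 108, 686 and 554 CPM (1.33 ± 0.09), and 6 members of its family were called higher (Gimap3, Gimap4, Gimap6, Gimap7, Gimap8 and Gimap9), with interactions of 0.28 to 1.33. Gimap1 and Gimap5, also tested, were not called. The family is a cluster of similar genes, so the split of reads among its members is uncertain. The class I genes H2-K1 (0.42 ± 0.08), H2-D1 (0.38 ± 0.09) and B2m (0.40 ± 0.08) were called higher too, with the same caveat for the former 2. The 3 called lower were Tnfrsf1b, Ms4a4c and Itga4.

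Interferon-stimulated genes had 26 of 56 members called higher (46.4%) and 1 lower (1.79%), with a median of 0.39. CD25+ progenitors had the lowest mean in all 26. The CD25 gate lowered 48 of the 56 without FOXP3 and 24 with it, beside 14.3% and 9.29% of all genes, with medians of −0.71 and −0.25. The FOXP3 gate raised 40 without CD25 and 50 with it, beside 12.8% and 15.9% of all genes. Gbp7, an interferon-induced GTPase (chr3:142530342-142550149), was at 107, 96.8 and 101 CPM in conventional cells, 50.3, 41.0 and 39.5 in CD25+ progenitors, 174, 159 and 165 in FOXP3lo progenitors and 167, 171 and 182 in mature Tregs (1.29 ± 0.12, adjusted p = 4.09e-11). The last 2 gates overlapped. Ifi208, a member of the family of DNA sensors on chromosome 1, had means of 195, 77.5, 256 and 180 CPM (0.83 ± 0.11), and Ifi203 of 139, 67.5, 262 and 249 CPM (0.97 ± 0.11). These too are similar neighbours whose reads may be split. Most interactions of the list were small, and 4 members were called higher in a test against a fold of 1.5.

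**Figure D5:**
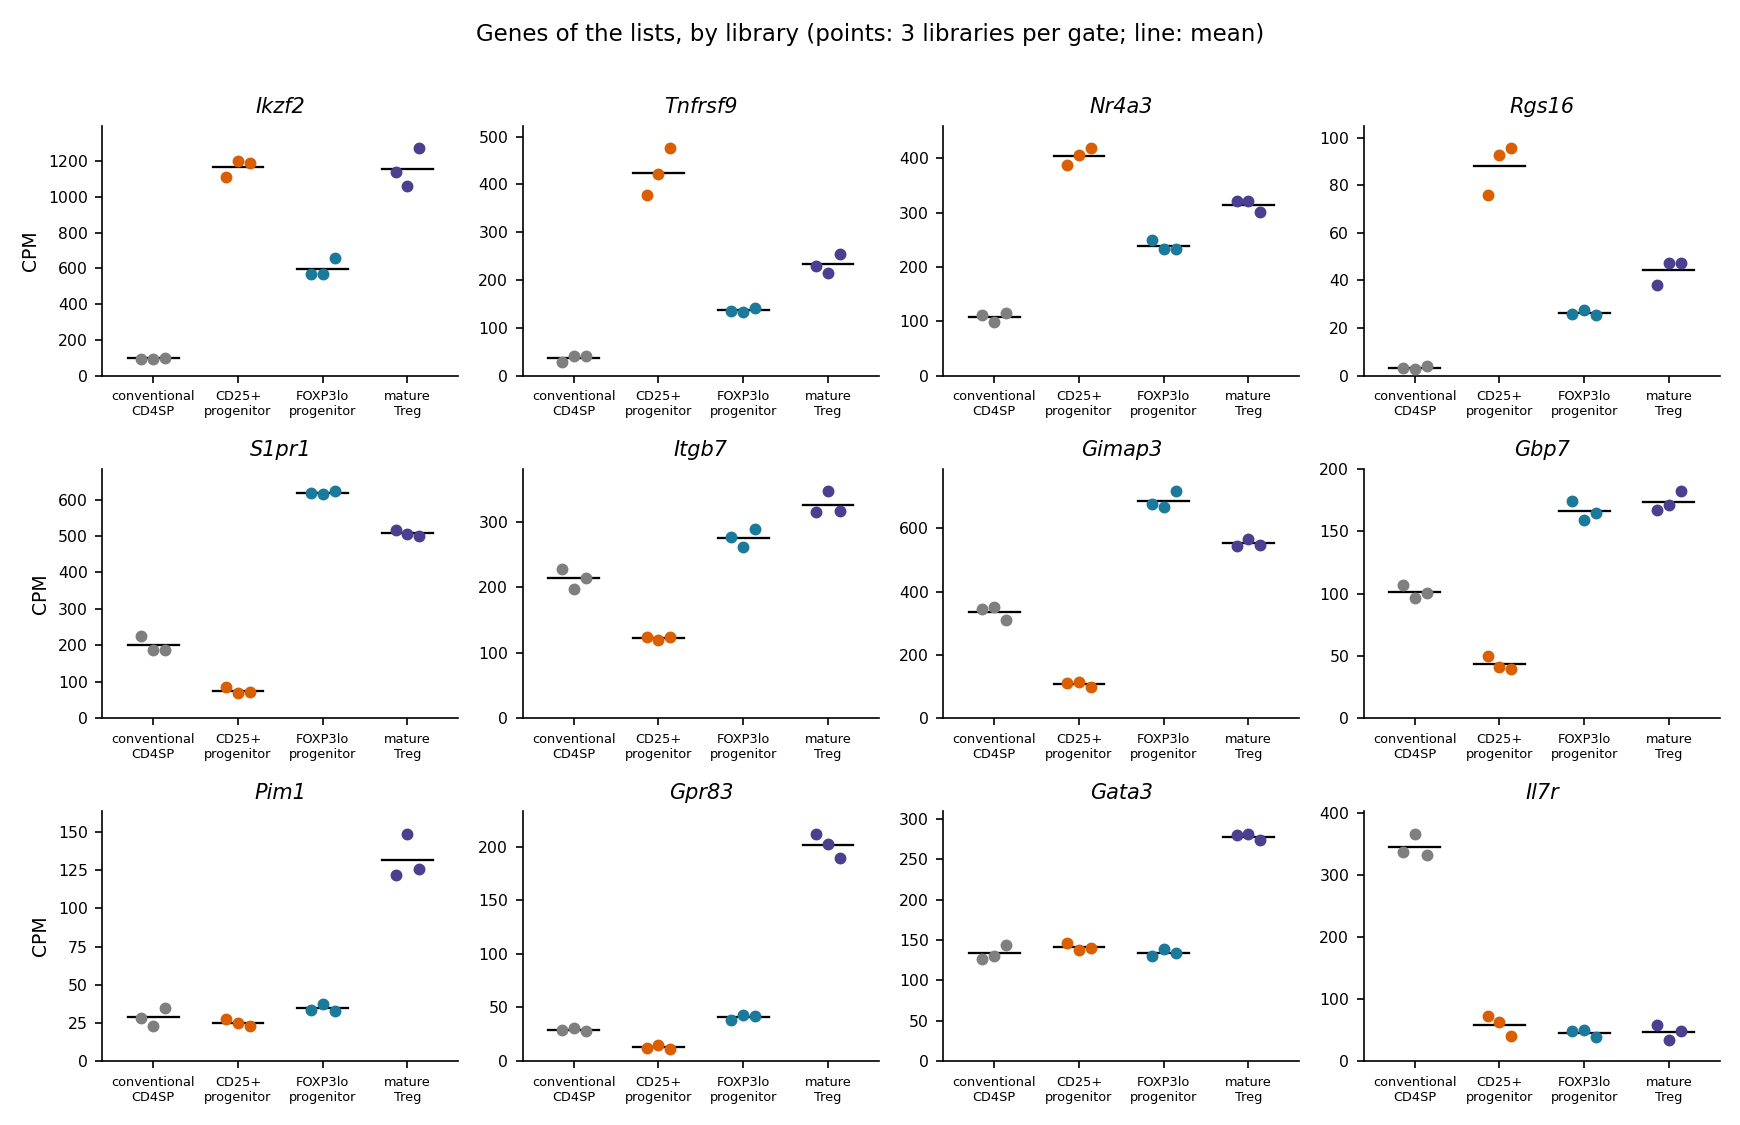
CPM of 12 genes of the lists by gate, on a linear axis from 0; each point is 1 of 3 libraries and the line is their mean. Ikzf2, Tnfrsf9, Nr4a3 and Rgs16 are high in CD25+ progenitors, S1pr1, Itgb7, Gimap3 and Gbp7 are lowest there, Pim1, Gpr83 and Gata3 are high in mature Tregs alone, and Il7r is high in conventional cells alone.

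Chemokine receptors and adhesion genes, which share S1pr1 and Itgb7 with the maturation list, had 9 of 21 called higher (42.9%) and 6 lower (28.6%), with 5 higher when FOXP3lo progenitor replicate 42 was left out. Itgb7, an integrin subunit of gut homing, was at 229, 198 and 214 CPM in conventional cells, 124, 120 and 124 in CD25+ progenitors, 277, 262 and 290 in FOXP3lo progenitors and 315, 347 and 317 in mature Tregs (1.04 ± 0.10, adjusted p = 8.03e-11). All gates were apart, with CD25+ progenitors lowest. Selplg, the ligand of P-selectin, had means of 156, 114, 195 and 267 CPM (0.91 ± 0.12). Those called lower included Ccr6 (0.523, 9.54, 5.75 and 37.4 CPM, −1.5 ± 0.44) and Cd44 (43.6, 167, 56.0 and 135 CPM, −0.67 ± 0.12), an activation marker that rose with CD25 in both settings.

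Among 27 apoptosis regulators, 7 were called lower (25.9%) and 5 higher (18.5%). The genes called lower included members of the killing side, Bcl2l11, Bmf (7.74, 22.7, 3.32 and 3.35 CPM, −1.53 ± 0.50), Fas (−0.51 ± 0.14) and Apaf1 (−0.46 ± 0.15). With them were Bcl2a1b and Bcl2a1d, near-identical inhibitors whose reads cannot be assigned with certainty. Those called higher held the inhibitors Bcl2, Mcl1 and Cflar (0.34 ± 0.09), and also Casp8 (137, 97.5, 190 and 231 CPM, 0.78 ± 0.10) and Bbc3 (1.33 ± 0.32), which encodes the killer PUMA. Of the 12 genes called, 5 had their highest mean in CD25+ progenitors and 5 others their lowest there.

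In the list of immature thymocyte genes, 8 of 30 were called in each direction (26.7%). Myb, a transcription factor of progenitors, had means of 58.0, 194, 170 and 222 CPM (−1.36 ± 0.10), with conventional cells alone low. Tcf7, a factor of T cell identity, was at 1761, 1580, 1362 and 639 CPM (−0.93 ± 0.08), with mature Tregs the lowest. Gata3, a factor of CD4 T cells and of tissue Tregs, was at 126, 130 and 145 CPM in conventional cells, 146, 138 and 140 in CD25+ progenitors, 130, 139 and 134 in FOXP3lo progenitors and 280, 282 and 274 in mature Tregs (0.97 ± 0.10, adjusted p = 9.38e-10). The first 3 gates overlapped and mature Tregs stood apart.

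Of 20 effector and helper T cell genes, 8 were called lower (40%) and 3 higher (15%). Bhlhe40, a transcription factor of activated T cells, had means of 1.51, 51.4, 16.5 and 53.2 CPM (−3.34 ± 0.26), Rora 26.7, 123, 31.8 and 61.0 CPM (−1.27 ± 0.17), and Ahr, the aryl hydrocarbon receptor, 7.30, 30.0, 15.9 and 23.4 CPM (−1.49 ± 0.28). In the TGF-β and GARP list, 6 of 18 were called lower (33.3%) and 3 higher (16.7%), with 1 higher without conventional replicate 40. Itgb8, the integrin subunit that releases active TGF-β from GARP, had means of 0.217, 8.07, 14.8 and 30.3 CPM (−4.03 ± 0.45), and Smad7, the pathway's feedback inhibitor, 126, 73.5, 231 and 222 CPM (0.73 ± 0.12). Of 18 immediate early and dissociation genes, 7 were called higher (38.9%) and 1 lower (5.56%), with 6 of the 7 lowest in CD25+ progenitors. Without CD25+ progenitor replicate 42, 4 were called higher. The 7 included Klf6 (35.5, 21, 60.8 and 70.3 CPM, 0.97 ± 0.17) and Socs3 (16.7, 6.64, 15.3 and 23.6 CPM, 1.96 ± 0.30). These genes can also respond to tissue handling, and the part of handling in their values was not tested.

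Ribosome biogenesis factors rose with the CD25 gate in 34 of 40 without FOXP3 and in 28 with it, beside 14.7% and 9.37% of all genes, at medians of 0.59 and 0.52. With the FOXP3 gate, 30 fell without CD25 and 38 with it, beside 12.3% and 16.8% of all genes. Their interaction was called in 6 (15%), all lower, led by the nucleolar proteins Ncl (882, 2131, 900 and 1358 CPM, −0.68 ± 0.09) and Npm1 (−0.54 ± 0.08). That count fell to 2 without mature Treg replicate 40 or FOXP3lo progenitor replicate 42, to 3 without replicate 43 of conventional cells or of CD25+ progenitors, and to 0 with all 15 libraries or in a test against a 1.5-fold change. Of 31 mitotic genes, 28 fell with FOXP3 without CD25 and 25 with it (12.3% and 16.8% of all genes fell), and 1 had a called interaction (Kif23, lost without conventional replicate 43, adjusted p = 0.0651). Of 35 DNA replication genes, 2 were called, both higher (E2f2 and Chaf1b), and E2f2 (0.73 ± 0.22, adjusted p = 0.0246) lost its call in 7 of the 12 fits that left out 1 library. No member was called by edgeR in the lists of cholesterol synthesis (24 tested, 3 at an unadjusted p under 0.05), nuclear-encoded respiratory chain (33 tested, 4) and mitochondrially encoded genes (13 tested, 0), and limma-voom and DESeq2 called 0 in each as well. With a filter of 2 CPM, or without CD25+ progenitor replicate 40 or mature Treg replicate 42, 1 cholesterol gene and 1 respiratory gene were called lower. One cholesterol gene was also called lower without replicate 43 of conventional cells or of mature Tregs, and 1 higher without replicate 42 of FOXP3lo progenitors or of mature Tregs. Glycolysis had 5 of 21 called lower (23.81%, and 2 without CD25+ progenitor replicate 42 or 3 without any of 7 other libraries), with Pfkfb3 (61.2, 166, 61.5 and 62.6 CPM, −1.41 ± 0.14) raised in CD25+ progenitors alone, and 2 higher (9.52%), Slc2a3 (58.5, 26.9, 66.4 and 93.1 CPM, 1.61 ± 0.15) and Pdk1 (0.66 ± 0.11).

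Some markers of less mature thymocytes were highest in CD25+ progenitors and others were not, beside the genes above that are high or low there. Rag1, which cuts antigen receptor genes, was at 72.9, 60.4 and 41.1 CPM there, 0.894, 6.14 and 0.698 in conventional cells, 2.31, 1.80 and 2.64 in FOXP3lo progenitors and 2.76, 1.88 and 3.19 in mature Tregs (−4.43 ± 1.01, adjusted p = 0.0239). That call was lost in 7 of the 12 fits that left out 1 library, with adjusted p of up to 0.0724. Rag2 (4.54 CPM against at most 0.341), Ptcra (4.23 against at most 0.226) and Dntt (76.8 against at most 25.2) had their highest means there too. Cd8a did not share that gap, at 17.8 CPM in CD25+ progenitors and 16.8 in conventional cells. Cd8b1 was highest in conventional cells, with means of 27.9, 20.7, 12.9 and 20.1 CPM and an interaction of 1.06, called higher. The summed list of immature thymocyte genes was also highest in conventional cells, at 8828 to 9782 CPM, against 6733 to 6807 in CD25+ progenitors. The summed list of CD8 and double-positive genes was 246 to 294 CPM in CD25+ progenitors, 126 to 167 in conventional cells, 58.6 to 63.8 in FOXP3lo progenitors and 105 to 117 in mature Tregs, with 3 of 13 called in each direction. The γδ T cell constant genes Trgc1 and Trgc2, similar to each other and not separable with certainty, were at 7.87 and 15.2 CPM in CD25+ progenitors and at most 1.09 elsewhere. The interaction of Trgc2 was −5.11 ± 0.90 (adjusted p = 5.64e-05). That of Trgc1 was fitted at 0.09 and not called. With a mean of 0.0386 CPM in FOXP3lo progenitors, Trgc1 had too few counts there to measure it well. Trdc was at 11.4 to 13.3 CPM in all gates. Sox13, another marker of γδ T cells, was highest in conventional cells, with means of 5.51, 2.56, 0.388 and 0.223 CPM. The γδ list as a whole had 1 of 9 called and sums of 80.6 to 98.8 CPM in CD25+ progenitors against 45.6 to 69.4 elsewhere. The part of such cells, or of a less mature state, in the interactions led by CD25+ progenitors was not tested.

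Some defining markers of other cells were at or near 0 and some were not. Ms4a1 had a mean of at most 0.341 CPM, Itgax 0.268 and Csf1r 0.425, Klrb1c was at most 0.0169, and Krt5 and Hbb-bs were at 0 counts in every library. Epcam, of epithelium, had means of 2.51, 11, 5.48 and 6.03 CPM, and the macrophage markers Cd68 and Itgam had means of 2.24 to 3.03 and of 0.622 to 2.34 CPM. Epcam was thus highest in CD25+ progenitors, and the part of such cells in the interactions was not tested. The T cell markers Cd3d, Cd3e, Cd3g and Trac were at means of 180 to 634 CPM in every gate. The B cell list had 1 of 5 called (Ighm, higher), the dendritic cell and macrophage list 3 of 13 (Cd74 lower, Ctss and Cst3 higher) and the epithelial and stromal list 2 of 5 (Epcam lower, Cdh5 higher). Cdh5, at a mean of at most 1.23 CPM in any gate, lost its call in 8 of the 12 fits that left out 1 library. Ighm was lost without FOXP3lo progenitor replicate 42 and Cst3 without CD25+ progenitor replicate 40. No erythroid gene reached the filter. Of the T cell identity genes, 4 of 17 were called higher and 2 lower, with interactions of −0.59 (Zap70) to 0.76 (Thy1). Of the NKT and innate-like genes, 4 of 11 were called lower (Gzma, Xcl1, Eomes and Il2rb) and 1 higher (Slamf1). Of the recirculating and activated Treg genes, 4 of 14 were called lower (Lag3, Pdcd1, Ccr6 and Cd44) and 3 higher (Gata3, Itgae and Prdm1), with 2 lower without conventional replicate 43 and 5 higher without FOXP3lo progenitor replicate 43. Of the MYC network 2 of 11 were called higher (Myc and Mxi1), and neither was without mature Treg replicate 40.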

How the data were processed

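Bulk RNA was measured in 15 libraries, 12 of them used here. The table the authors deposited gives unnormalized read-pair counts for 55573 genes of Ensembl 97 (GRCm38) from featureCounts 1.6.2 (both ends mapped, mapping quality of at least 10, strand setting 2), per the file headers. The submitters' processing notes list Trimmomatic 0.33, HISAT2 2.1.0 and, in another version, featureCounts 1.4.6. Symbols were matched by position to RefSeq GRCm38.p6 for 36974 genes. Of 751 entries in 29 gene lists, 739 were matched.

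Counts were tested in R 4.3.3 with edgeR 4.0.16 (quasi-likelihood, robust) after filterByExpr and TMM scaling, with adjusted p under 0.05 over all genes tested. Fits were tested on simulated data. Each SE of a log2 effect is the size of the effect divided by the square root of the F statistic of its test. It is rough where a gate has few counts. CPM values use TMM library sizes. A group at 0 counts was set to a floor of 3 counts, which, like every count here, covers counting error only, since amplified copies are not separate molecules. Alternatives were RLE factors, other filters, the replicate number as a block, all 15 libraries, limma-voom (limma 3.58.1), DESeq2 1.42.0, leaving out the 20 genes with most counts, testing against a 1.5-fold change, and each library left out in turn. Libraries of the same number correlated, in their deviations from the gate means, at −0.01 to 0.05 (18 pairs). That cannot settle whether the numbers pair the samples, and the main fit did not pair them. No library duplicated another (count variance 7.60 to 14.7 times Poisson between replicates).

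The genes, lists and comparisons were chosen with earlier results of these data known. Named genes had a symbol and at least 5 CPM in the highest gate, were no gate gene, antigen receptor segment (Trgc2 among them), pseudogene, small RNA or predicted gene, and were the 10 highest and 10 lowest called interactions, 8 and 8 of the genes with both progenitors apart, 5 and 5 with opposite CD25 effects, up to 3 called members per list, where these limits were not applied, and, apart from these, the gate genes. Others were chosen after their values were seen, and a few genes are not reported here. A planned search of promoters for motifs was not run, since no sequence was used here.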

Additional observations from a re-analysis of the deposited data

Results flagged for a closer look

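The test of a difference between the CD25 gate's effects without and with FOXP3 was met by 1698 genes. In 70 of them the effect was called upward without FOXP3 and downward with it, and in 96 it was called downward without FOXP3 and upward with it. The genes named for such crossing effects were Pou2af1 (interaction −4.75 on the log2 scale), Adamtsl2 (−3.99), Itga9 (−3.86), Fam163b (−3.41) and Bcl6 (−2.83) in the former order, and Acvr1c (4.82), Neb (4.73), Il12rb2 (3.61), Gpr83 (3.47) and Tlr1 (2.41) in the latter. Groups of 3 libraries are too small for a search for single outlying samples.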

How the results depend on the processing

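No called result changed direction under any alternative run. The interaction of Cd4, not called, ranged from −0.07 to 0.03, and the median of all genes, 0.01, from −0.04 to 0.11. With all 15 libraries in the fit, 378 genes had a called interaction in place of 1698, the CD25 gate called 1871 genes without FOXP3 and 759 with it, the FOXP3 gate called 1400 without CD25 and 2096 with it, and the strict sets held 2 genes above and 3 below. Replicates of the Bst2+ gate varied with a biological coefficient of 0.453, those of the 4 gates used with 0.124 to 0.164, and the coefficient was 0.420 in the fit of all 15 against 0.184 in the fit of 12. A test against a fold of 1.5 called 369, 1152, 412, 867 and 1338 genes in the same order, and 2 above and 2 below. A filter of 2 CPM in 3 libraries gave the interaction 13.5% of the variation between gates in place of 17%.

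Other settings kept the count of called interactions within 1.5 times: 1697 with RLE factors, 1572 with no filter, which moved the median of all genes to 0.11, 1765 with the filter of 2 CPM, 1639 with limma-voom, 1867 with DESeq2 and 1695 without the 20 most abundant genes. The replicate block gave 1755, with 1672 of the 1698 genes shared, and changed no count given here by over 1.5 times except that of immediate early genes called lower, from 1 to 2; Cd8a became called (1.37, adjusted p = 0.00626). Whether the numbers shared across gates pair the libraries was not settled. Correlations of same-numbered libraries had a mean of 0.0190 and those of other pairs a mean of −0.0095. Deviations from a gate mean cancel within the gate, which ties the latter mean to the former.

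Leaving out each library in turn gave 1401 to 1610 called interactions, 3878 to 4704 and 2312 to 2985 for the CD25 gate without and with FOXP3, 3205 to 4054 and 4449 to 5181 for the FOXP3 gate without and with CD25, 17 to 22 genes above and 10 to 17 below, with 10 below without conventional CD4SP replicate 43. Genes with all progenitor libraries apart numbered 77 to 115 above and 53 to 75 below, which rises by construction with fewer libraries; 115 was without mature Treg replicate 43, 75 without conventional CD4SP replicate 40, and 67 without mature Treg replicate 40 or 42.

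The 21 TCR-induced genes called lower became 13 with all 15 libraries and 13 in the fold test. The 26 interferon genes called higher became 6 and 4, and the 23 late single-positive genes 14 and 11. Of 114 named genes called, 56 were called in every alternative, 44 were lost only in those 2 settings and 14 also or only in others, namely Rag1 (adjusted p up to 0.0832), Cdh5 (up to 1.00, lost in 11 of 20), E2f2 (up to 0.914, lost in 9 of 21), Socs2, Kcnj15, Gpnmb, Epb41l4b, Pdlim4, Heatr1, Myc, Mxi1, Ighm, Kif23 and Cst3. Pdlim4 moved to −3.05 with limma-voom. Cd8a was also called without conventional or mature Treg replicate 40 and with no filter on low counts. Rare genes are limited by counts.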

Other observations

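Neighbours were searched among the genes picked by the naming rules or held in the strict sets. Genes named after their values were seen, such as the other Gimap genes, were not searched. Besides Adamtsl2 and Fam163b, 7 pairs of the searched genes with called interactions lay within 600 kb of each other on GRCm38. Itga9 (−3.86) lies 120.557 kb from Eomes, a T-box factor of cytotoxic and memory T cells (−3.04), with 2 tested genes between them. Pfkfb3 (−1.41) lies 88.729 kb from Il2ra (−1.54), with 3 tested genes between them. The unnamed transcript gene Gm40841 (−2.93) lies 528.852 kb from Sox4 (−2.07), with 5 tested genes between them. Both genes were called higher in 3 further pairs, Crip1 (1.43) and Ighm (0.67) at 264.678 kb, Ifi208 (0.83) and Ifi203 (0.97) at 222.011 kb, and Gimap3 (1.33) and Gpnmb (3.42) at 265.694 kb. Thy1 (0.76) and Cxcr5 (−4.67), 463.207 kb apart with 23 tested genes between them, had opposite signs. These pairs were noticed after the values were seen, and no test of their nearness was made.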
